A study of Mus musculus with 6 samples.

Results

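Small nucleolar RNAs (snoRNAs) and the genes that carry them were followed in the brainstem of mice at P21. All loci of the deposited transcript assembly with at least 1 gene name beginning with Snora, Snord or Snhg were taken as whole loci, which gave 118 of the 34632 loci. RNA came from 6 libraries, 3 labelled *Hoxa5* control (*Hoxa5*flox/flox;CMV-CreERT2-/-) and 3 labelled *Hoxa5* cKO (*Hoxa5*flox/flox;CMV-CreERT2+/-). Each was a pool of 3 whole brainstems, and both genotypes carried the floxed allele and received tamoxifen from P1 to P4, on a mixed background, mainly 129/Sv, with C57BL/6 and DBA/2. The control animals were littermates without the transgene, and the CMV promoter drives the inducible Cre in many cell types, so the model was not limited to neurons or to one brainstem nucleus. HOXA5 is a transcription factor of the developing hindbrain, and the comparison asked which transcripts changed after its postnatal inactivation.

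Box C/D snoRNAs (Snord) guide 2′-O-methylation of ribosomal RNA with fibrillarin, and box H/ACA snoRNAs (Snora) guide pseudouridylation with dyskerin. Most mammalian snoRNAs lie in introns and are trimmed out of the excised intron of a host gene, often a ribosomal protein or translation gene. Snhg genes are hosts whose spliced exons mostly encode no protein. A snoRNA is therefore both a short RNA of its own and a piece of a longer transcription unit, and the assembly kept some as separate loci and merged others with their hosts.

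Libraries held 12034613 to 13202707 counted fragments. The locus that holds *Hoxa5*, merged in the assembly with *Hoxa6* and 2700086A05Rik, did not follow the labels, with 202, 337 and 77 fragments in control and 279, 57 and 63 in cKO libraries, so that in these files the directions given here rest on the labels. The library cKO 1 held 3 fragments over 4 Y-linked loci, against 1069 to 1734 in the other libraries. Cerebellar markers were lower in cKO: granule neuron markers summed to 286 to 551 CPM (fragments scaled to the size of the library) in control and 105 to 136 in cKO, with 5 of 7 called lower, and 6 of 7 Purkinje cell markers were called lower. All 7 brainstem markers were detected. In a pool of tissue, fewer cells of a type and less RNA per cell cannot be told apart.

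The 118 loci fell into 4 kinds. Lone snoRNAs, 91 loci of 20 to 221 bases with no host gene name (1 also carries a microRNA name), held 4.37% of the fragments of the set. Another 14 loci merged snoRNAs with a host gene and held 64.7%, 11 were Snhg loci with 30.8%, and 2 (*Snord104* and *Snord8*) joined a snoRNA to a longer transcript. All 27 loci of the last 3 kinds had fragments. Of the lone loci, 37 had at least 1 fragment and 54 had none in any library.

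Sequences are shown for 3 sets. They are those of GENCODE vM21 on GRCm38, the genome build of the files (mm10), for 101 of the 117 snoRNA names of the set. Capitals mark the C box TGATGA in the first 25 bases and the D box CTGA in the last 25 bases of Snord, or an ACA in the last 8 bases of Snora, searched on the RNA strand. Of 98 Snord transcripts, 71.4% held this C box and 99.0% this D box, and 95.2% of 42 Snora transcripts held the ACA. The first set is of lone snoRNAs with fragments in each library.
Snord17 (chr2:144265979-144266216, minus strand): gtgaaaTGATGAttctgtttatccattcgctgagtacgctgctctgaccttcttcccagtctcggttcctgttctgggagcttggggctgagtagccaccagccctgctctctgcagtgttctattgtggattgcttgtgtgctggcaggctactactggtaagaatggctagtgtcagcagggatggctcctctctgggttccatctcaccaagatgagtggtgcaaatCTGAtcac
Snord15b (chr7:99479563-99479707, minus strand): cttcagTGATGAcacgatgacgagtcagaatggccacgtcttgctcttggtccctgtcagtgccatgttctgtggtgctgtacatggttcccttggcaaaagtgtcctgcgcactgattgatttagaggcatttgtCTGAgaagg
Snora23 (chr7:110046364-110046547, plus strand): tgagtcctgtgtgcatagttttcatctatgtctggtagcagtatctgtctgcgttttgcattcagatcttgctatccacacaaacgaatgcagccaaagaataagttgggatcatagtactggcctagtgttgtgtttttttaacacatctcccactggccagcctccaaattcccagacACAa
Snora7a (chr6:115807975-115808114, minus strand): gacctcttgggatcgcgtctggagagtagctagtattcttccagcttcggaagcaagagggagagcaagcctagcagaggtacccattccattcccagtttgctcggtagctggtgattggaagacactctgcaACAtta
Snora21 (chr11:97781639-97781775, minus strand): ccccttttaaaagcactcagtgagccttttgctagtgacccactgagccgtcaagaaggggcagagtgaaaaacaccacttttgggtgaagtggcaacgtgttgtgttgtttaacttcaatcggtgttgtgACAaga
The second set is of lone box C/D snoRNAs that received a handful of fragments and some of the highest FPKM values.
Snord49a (chr11:62603450-62603521, plus strand): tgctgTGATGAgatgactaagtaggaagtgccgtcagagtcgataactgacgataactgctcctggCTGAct
Snord49b (chr11:62603079-62603150, plus strand): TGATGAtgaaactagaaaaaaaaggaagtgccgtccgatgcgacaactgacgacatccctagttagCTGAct
Snord83b (chr15:80078498-80078591, minus strand): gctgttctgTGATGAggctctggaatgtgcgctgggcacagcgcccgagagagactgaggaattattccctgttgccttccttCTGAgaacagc
The third set is of snoRNAs inside longer loci, where the assembly held a short transcript and a longer one in the same locus.
Snord104 (chr11:106500993-106501062, plus strand): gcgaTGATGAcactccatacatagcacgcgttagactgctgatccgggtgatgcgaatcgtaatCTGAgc
Snord99 (chr4:132310691-132310764, plus strand): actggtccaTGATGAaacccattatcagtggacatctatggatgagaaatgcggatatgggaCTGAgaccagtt
Snord89 (chr1:39548745-39548854, minus strand): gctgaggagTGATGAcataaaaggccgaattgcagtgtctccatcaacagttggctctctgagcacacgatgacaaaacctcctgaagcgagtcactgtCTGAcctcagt
Snora5c (chr11:6620319-6620454, minus strand): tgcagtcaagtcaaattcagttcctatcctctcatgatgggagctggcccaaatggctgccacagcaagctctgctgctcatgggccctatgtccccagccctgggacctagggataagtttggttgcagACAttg
Snord33 (chr7:45126864-45126947, minus strand): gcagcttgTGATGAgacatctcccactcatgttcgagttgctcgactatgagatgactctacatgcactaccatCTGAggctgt
Snord22 (chr19:8725866-8725991, plus strand): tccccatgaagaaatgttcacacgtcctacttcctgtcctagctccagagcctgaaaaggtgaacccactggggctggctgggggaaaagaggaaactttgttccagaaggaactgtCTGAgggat
The *Snord49a* and *Snord49b* genes lie in tandem on chromosome 11. Among 73 lone snoRNAs matched to GENCODE, the deposited locus was shorter in 64, by up to 77 bases, and had the same length in 5.

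Fragment counts of the lone snoRNAs followed the length of the deposited locus, which was often below that of the GENCODE transcript. *Snora20* and *Snora2b*, 128 and 137 bases long in GENCODE, were 61 and 112 bases in the assembly and had 0 fragments. By deposited length, all 15 loci of 120 bases or more had fragments, together 10755 over the 6 libraries. Of 10 loci of 100 to 119 bases 8 had fragments (113 in all), of 24 loci of 75 to 99 bases 8 had them (57 in all), and of 42 loci under 75 bases 6 had them (24 in all). The libraries were made from fragmented, ribosomal RNA-depleted total RNA, and what part of these low counts came from library size selection, mapping or the tissue was not tested. By family, 21 of 26 lone Snora and 16 of 65 lone Snord loci had fragments, and box C/D RNAs are the shorter family. All 10 *Snord116* loci, 90-base copies in the Prader-Willi region that lie within *Snhg14*, were at 0. GENCODE places 9 of them in introns and 1 over an exon. The 0 fragments of the *Snord116* loci allow up to 0.0397 CPM per locus over all libraries, a limit that covers counting error only. *Snord118* (U8, which acts in the maturation of large-subunit rRNA) was also at 0. The assembly held that name only as a 44-base locus on chromosome 19, outside a longer gene and without a matched GENCODE sequence. Its 0 therefore does not give the level of U8.

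**Figure D1:**
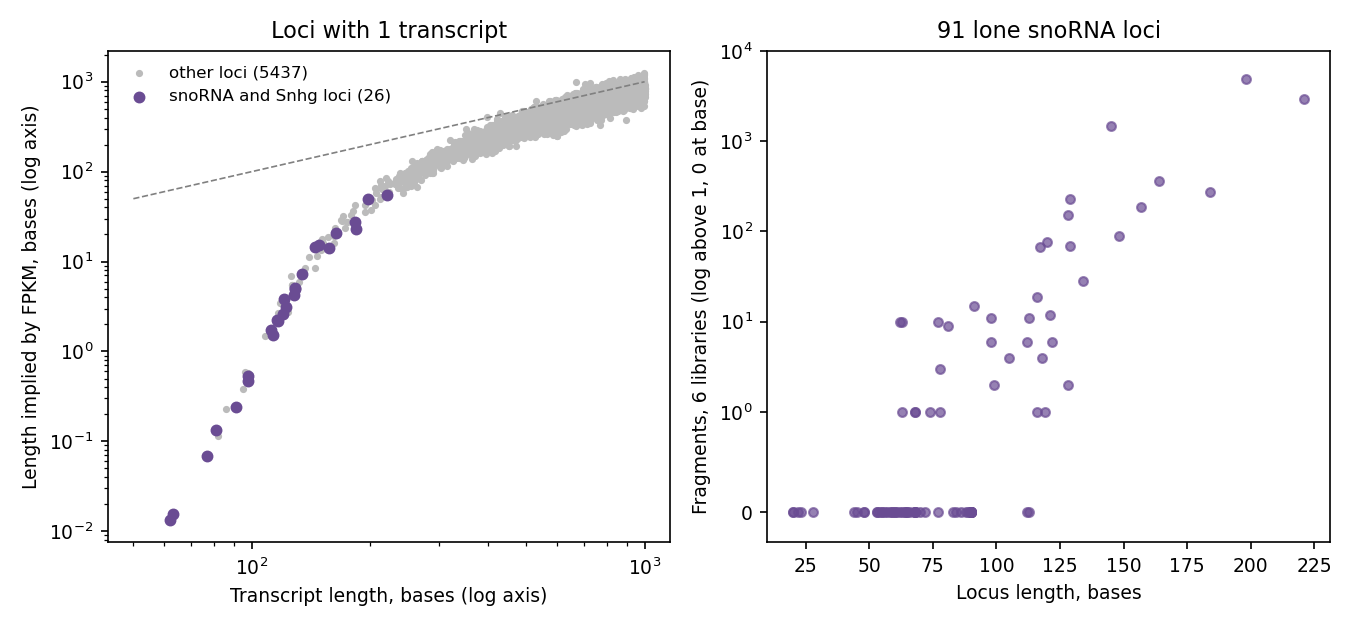
Left, for loci with 1 transcript and at least 5 fragments, the transcript length in bases against the length that the deposited FPKM imply, both on log axes, with the line of equality dashed. Right, fragments over the 6 libraries against the length of the 91 lone snoRNA loci, of which the 54 at the base had none.

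The FPKM of the shortest loci rested on an extreme correction for length. FPKM divides fragments by an effective length, the number of positions at which a fragment could start, and this length can be read back from the fragments, the FPKM and the library size. For *Snord49a*, 62 bases long in the assembly, the implied length had a median of 0.0130 base, and 1 fragment was worth a median of 5974 FPKM. For *Snord83b* (77 bases) it was 0.0663 base, for *Snora7a* (129 bases) 4.96 bases, for *Snord15b* (145 bases) 14.5 bases and for *Snord17* (221 bases) 54.0 bases. The same fall with length held over all loci with 1 transcript: the implied length had a median of 0.425 base among 12 loci of 80 to 99 bases, 112 bases among 121 loci of 250 to 299 bases and 936 bases among 1661 loci of 1000 to 1199 bases. The loci of the set held 0.320% to 0.346% of the fragments of a library but 5.40% to 11.7% of its summed FPKM.

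By fragments, no locus of the set was called. Of 118 loci, 37 passed the filter on low counts, and edgeR's quasi-likelihood test called 0 higher and 0 lower in cKO at a Benjamini-Hochberg adjusted p under 0.05, beside 0.0275% of the 21854 loci tested called higher and 0.503% called lower. DESeq2 also called 0, against 0.540% of all loci. At an unadjusted p under 0.05 edgeR gave 1 locus of the 37, where the background was 6.94%. The median log2 fold change of the 37 was -0.0036, beside 0.0034 for all loci tested, and the changes ran from -0.29 to 0.46. Groups did not overlap in CPM at 3 of the 37 loci, against 12.2% of all loci tested. Of the 3, 2 were lower in each cKO library (6.54% of all loci) and 1 was higher (5.61%).

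The locus under that unadjusted threshold was *Snhg1*/*Snord22* (chr19:8723487-8726740), a noncoding host of many box C/D snoRNAs that the assembly had merged with *Snord22*. It had 321, 273 and 308 fragments in control and 222, 255 and 260 in cKO. Each cKO library was below each control library, at 23.9 ± 2.10 CPM in control and 19.5 ± 1.00 in cKO (SD, n = 3 each). The log2 fold change was -0.29 with an SE of 0.09, and the adjusted p by edgeR's test was 0.288, over a range of 0.226 to 1.00 in the alternatives. Its FPKM gave a similar change of -0.42 (SE 0.12) on the log2(FPKM + 1) scale, with an adjusted p of 0.526 by limma. Cerebellar marker levels were lower in the same libraries, and their part in this value was not tested.

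The other Snhg loci, which mostly carry snoRNAs in the introns of noncoding transcripts, kept overlapping groups by fragments. *Snhg11*, which is abundant in neurons, had the highest level, with 9231, 9416 and 11134 fragments in control and 8152, 10512 and 12040 in cKO, a log2 fold change of 0.04 (SE 0.08). *Snhg3* had 1894, 1733 and 1798 fragments in control and 1811, 1880 and 1852 in cKO, a change of 0.03 (SE 0.05). The lowest was *Snhg9*, with 1 to 4 fragments per library, which was not tested. *Snhg12*, the host of *Snora16a*, *Snora44*, *Snora61* and *Snord99*, had 151, 121 and 155 fragments in control and 155, 184 and 154 in cKO (0.21, SE 0.11, adjusted p = 0.795 by edgeR). *Snhg4*, *Snhg5*, *Snhg6*, *Snhg7*, *Snhg8* and *Snhg10* had between 34 and 120 fragments per library and changes of -0.16 to 0.20. *Gas5*, a host of box C/D snoRNAs whose locus carried no snoRNA name and so lay outside the set, had 574, 509 and 508 fragments in control and 534, 502 and 572 in cKO (0.02, SE 0.08).

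**Figure D2:**
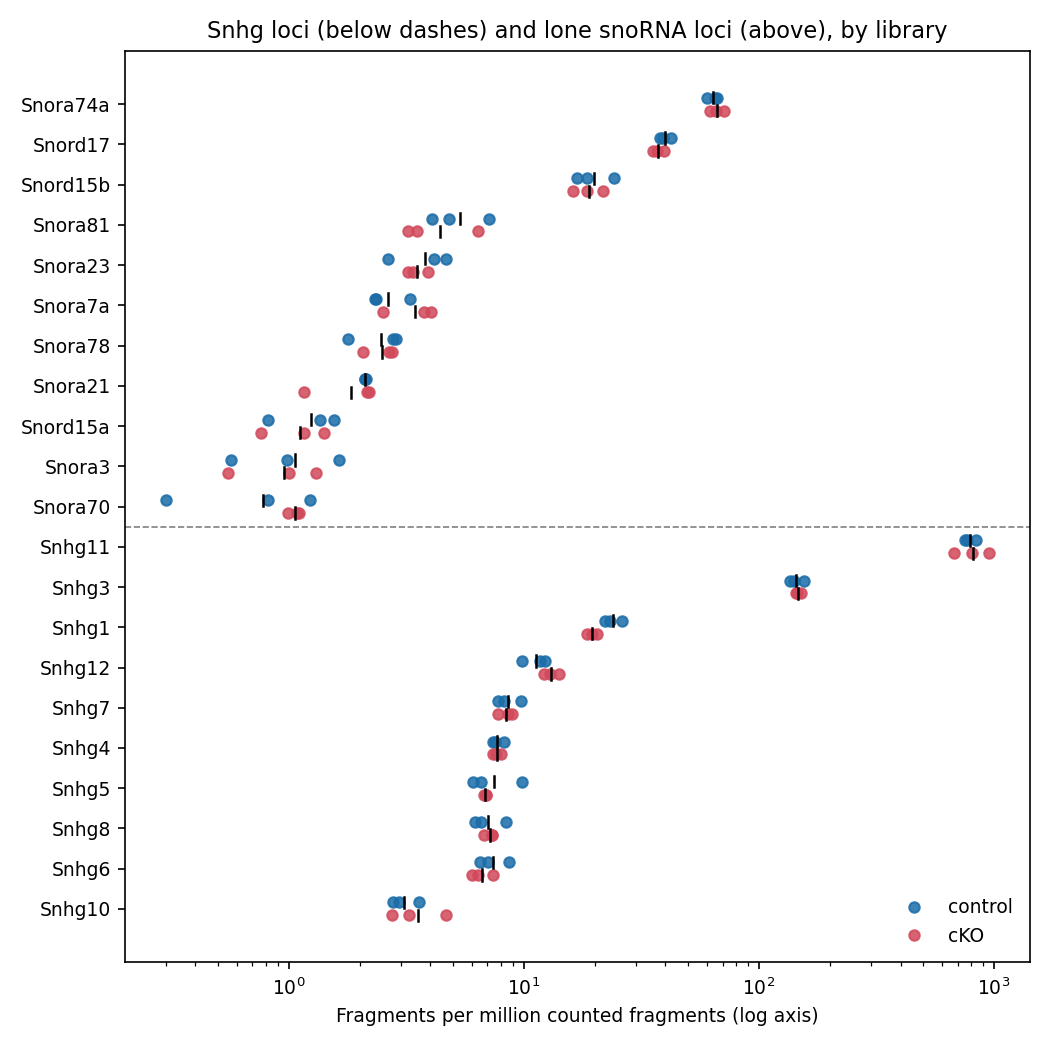
CPM per library on a log axis for the 10 Snhg loci and 11 lone snoRNA loci tested by fragments, with a point for each library and a bar for the group mean. *Snhg1* is the locus whose 3 cKO libraries all lie below the 3 control libraries.

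Among lone box H/ACA RNAs, *Snora74a* (chr18:35557030-35557227) was the most abundant, with 793, 741 and 878 fragments in control and 851, 854 and 788 in cKO. The groups overlapped, at 63.7 ± 3.13 and 66.0 ± 4.44 CPM (SD, n = 3 each), and the log2 change was 0.05 (SE 0.06). *Snora81*, in the translation factor gene *Eif4a2*, had 87, 50 and 64 fragments in control and 77, 46 and 41 in cKO, a change of -0.29 whose SE of 0.25 was nearly as large. *Snora7a*, in *Rpl32*, had 40, 29 and 31 fragments in control and 45, 33 and 51 in cKO (0.37, SE 0.23), and *Snora70*, in *Rpl10*, had 15, 10 and 4 in control and 13, 13 and 14 in cKO (0.46, SE 0.42). *Snora21*, in *Rpl23*, had 26, 26 and 28 fragments in control and 14, 28 and 28 in cKO (-0.19, SE 0.27), and only the library cKO 1 stood below the rest. The sequences of *Snora7a* and *Snora21* are printed above. GENCODE placed *Snora21* in an intron, but *Snora74a*, *Snora81*, *Snora7a* and *Snora70* over an exon of the longer gene. What part of their fragments came from host exons was not tested.

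Among lone box C/D RNAs, *Snord17*, in an intron of *Snx5*, had 519, 465 and 516 fragments in control and 473, 479 and 452 in cKO. The groups overlapped, and the log2 fold change was -0.09 (SE 0.07). *Snord15b*, which GENCODE placed over an exon of *Rps3*, had 295, 228 and 223 fragments in control and 224, 211 and 276 in cKO (-0.07, SE 0.13). Its neighbour *Snord15a*, in the same host, had 10 to 19 fragments per library. The 3 box C/D loci that were tested had changes of -0.16 to -0.07, and none was called. *Snord8*, joined to a transcript of 1680 bases, had 35, 40 and 46 fragments in control and 43, 33 and 25 in cKO (-0.25, SE 0.23).

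Loci that merged snoRNAs with a host gene were the most deeply counted. The *Snrpn*/*Snurf* locus (chr7:59922520-60870679), which takes in *Snord64* and *Snhg14* and is imprinted, had 17341, 17226 and 19240 fragments in control and 17443, 19637 and 18734 in cKO. After scaling for library size each cKO library was above each control library, at 1421 ± 25.7 and 1476 ± 25.4 CPM (SD, n = 3 each), but the change was 0.05 (SE 0.04) with an adjusted p of 0.874 by edgeR. *Rpl13a*/*Snord33*, a ribosomal protein gene, had 1890, 1832 and 2086 fragments in control and 1962, 2011 and 1806 in cKO (-0.0036, SE 0.05). *Rpl17*/*Snord58b* changed by 0.05 (SE 0.05) and *Rabggtb*/*Snord45b*/*Snord45c* by -0.0081 (SE 0.07). *Kansl2*/*Snora34*, deposited under the older name 2310037I24Rik, was lower in each cKO library, at 72.0 ± 0.506 CPM in control and 69.0 ± 1.87 in cKO (SD, n = 3 each), with a change of -0.06 (SE 0.05, adjusted p = 0.900 by edgeR). The 14 merged host loci had changes of -0.11 to 0.06.

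The host genes of the lone snoRNAs were tested in the same way. GENCODE placed 56 of the 91 lone loci in an intron, 31 over an exon of a longer gene and 4 outside one. Their hosts were found as 58 loci, of which 57 were tested and 0 called by edgeR, beside 0.0275% of all loci called higher and 0.503% lower. At an unadjusted p under 0.05 there was 1 of the 57, beside 6.94% of all loci. The median log2 fold change of the 57 was 0.0059, and that of the 21 ribosomal protein hosts 0.02. *Rpl32* changed by 0.05 (SE 0.07) beside *Snora7a*, and *Eif4a2* by 0.03 (SE 0.05) beside *Snora81*.

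The proteins that act on snoRNAs were tested in the same fit. None of the 4 box C/D core proteins (*Fbl*, *Nop56*, *Nop58* and *Nhp2l1*, now *Snu13*) and none of the 4 box H/ACA core proteins (*Dkc1*, *Nop10*, *Nhp2* and *Gar1*) was called higher or lower, with changes of -0.03 to 0.09 and of -0.06 to 0.23. Of 15 genes of snoRNP assembly and trafficking, 15 of snoRNA processing and host RNA decay, and 8 of the U3 processome, 0 were called, beside 0.0275% of all loci called higher and 0.503% lower. *Smg1*, the kinase of nonsense-mediated decay, had a change of -0.15 (SE 0.05, adjusted p = 0.363 by edgeR), and no other gene of these 5 lists was under an unadjusted p of 0.05, as 6.94% of all loci were. Of 11 imprinted and noncoding host RNAs 0 were called, and *Ndn* had a change of 0.10 (SE 0.05, adjusted p = 0.662 by edgeR). Of 9 other small RNA loci that were tested, among them *Rpph1* and *Rmrp*, the RNAs of RNase P and RNase MRP, 0 were called.

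By FPKM, the changes in the set spanned a wider range, over more loci than the count test took. Of the 118 loci, 55 had an FPKM of at least 1 in 3 libraries, and limma on log2(FPKM + 1) called 0 of them, as it did 0% of all 19282 loci tested. At an unadjusted p under 0.05 there were 6 of the 55, beside 6.73% of all loci. The median change of the 55 was -0.08, beside -0.0048 for all loci, and the changes ran from -8.48 to 7.74. Of the 55, 18 had too few fragments for the count test, with 3 to 67 fragments in all 6 libraries. Their FPKM changes had a median size of 2.59 on the log2 scale and ran from -8.48 to 7.74, the whole range of the 55. Among the 37 loci also tested by fragments, the largest change by FPKM was 2.71 in size.

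*Snord49b*, a box C/D RNA, had 1, 2 and 3 fragments in control and 0, 4 and 0 in cKO. These few fragments became 5011, 11283 and 14841 FPKM in control and 0, 18466 and 0 in cKO. The change was -8.48 on the log2(FPKM + 1) scale with an SE of 3.59. Mean FPKM were 10378 in control and 6155 in cKO, so the size of that change came from the libraries at 0. *Snord83b* had 1, 0 and 0 fragments in control and 1, 7 and 1 in cKO, and its FPKM were 1212, 0 and 0 in control and 1307, 7520 and 1196 in cKO. Mean FPKM were 404 in control and 3341 in cKO. The change, whose size also rested on the libraries at 0, was 7.74 with an SE of 2.66 and an adjusted p of 0.660 by limma. Over the alternatives it ran from 6.03 to 12.2, the latter with a pseudocount of 0.01, and its lowest adjusted p by limma was 0.0775, without control 1. *Snord49a* had 1, 1 and 4 fragments in control and 1, 2 and 1 in cKO, for which the FPKM were 5813 to 22809. *Snord57* was listed at 5510 FPKM in the library control 1 for 1 fragment and at 0 elsewhere, and *Snord32a* at 566 to 1853 FPKM for 1 to 3 fragments in the 5 libraries that had any. From the lowest to the highest library, these 5 loci differed by 1 to 7 fragments.

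The FPKM also moved apart from the fragments in deeply counted loci. Between libraries, FPKM per CPM should be constant for a locus whose transcripts keep their proportions. It varied by over 2-fold between libraries in 9 of the 33 loci of the set with at least 20 fragments in each library, or 27.3%, beside 0.157% of all 16555 such loci, and by over 10-fold in 7 of the 8 loci for which it did so anywhere. All 9 lay among the 20 loci that held a transcript of at most 150 bases and a longer one. None of the 7 loci with 1 transcript and none of the 6 with several transcripts all over 150 bases varied by over 2-fold. Among loci outside the set with a transcript of at most 150 bases and a longer one, 2 of 127 did. Of 10026 loci outside the set with several transcripts, all over 150 bases, 15 did.

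*Snord104*, whose assembled transcripts were 73 and 1200 bases long, had the widest range, 1348-fold. Its fragments were 31, 25 and 27 in control and 43, 33 and 31 in cKO, but its FPKM were 3724, 1473 and 2.22 in control and 3541, 1135 and 1220 in cKO. The change was 0.37 by fragments (SE 0.23) and 2.71 by FPKM (SE 2.45), with the library control 3 alone below 1000 FPKM. Without that library the change by FPKM was -0.46. *Snhg12* had 121 fragments and 13250 FPKM in the library control 2, against 121 to 184 fragments over all libraries and 463 to 729 FPKM in the other 5. Its change was 0.21 by fragments and -1.35 by FPKM (SE 1.19), and 0.21 by FPKM without that library. The shortest transcript of the *Snhg12* locus was 56 bases long.

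Some host genes with a merged snoRNA showed the same, and the changes on the 2 scales differed by over 0.5 (log2) in 4 of the 14. Others were steady: FPKM per CPM varied by 1.01-fold in *Rpl17*/*Snord58b* and 1.05-fold in *Rabggtb*/*Snord45b*/*Snord45c*. Their shortest transcripts were 55 and 45 bases long. *Tbrg4*/*Snora5c*, which encodes a mitochondrial RNA-binding protein, had 364, 296 and 386 fragments in control and 316, 355 and 348 in cKO. Its FPKM were 164, 54.5 and 9.74 in control and 8.86, 8.25 and 8.78 in cKO, so that the groups overlapped by fragments and not by FPKM. The change was -0.04 by fragments (SE 0.09) and -2.26 by FPKM (SE 0.87, adjusted p = 0.713 by limma), and -1.34 by FPKM without control 1. *Rnf149*/*Snord89*, a ubiquitin ligase gene, had 395 to 458 fragments but 14.3, 87.1 and 580 FPKM in control and 218, 100 and 195 in cKO, and its change by FPKM of 0.83 was -0.47 without control 1 and 2.15 without control 3. *Rpl13a*/*Snord33* had 670, 160 and 1223 FPKM in control and 1266, 162 and 1131 in cKO, with the libraries control 2 and cKO 2 low. Its change by FPKM of 0.28 was -0.56 without control 2 and 1.23 without cKO 2. *Kansl2*/*Snora34* had 22.4 FPKM in control 2 and 114 to 256 in the others, and its change by FPKM of 0.48 was -0.59 without that library. *Snora30*/1700008J07Rik changed by -0.76 by FPKM (SE 0.96) and by 0.10 without control 2, where it had 188 FPKM.

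*Snhg7*, which carries *Snora43* and *Snora17*, was the locus of the set with the smallest p by FPKM. Its fragments were 101, 120 and 103 in control and 107, 112 and 99 in cKO, a change of -0.03 (SE 0.13). Its FPKM were 18.5, 26.9 and 15.8 in control and 32.4, 42.3 and 78.8 in cKO, each cKO library above each control library. The change by FPKM was 1.22 (SE 0.33), with an adjusted p of 0.516 by limma and of 0.989 by edgeR for the fragments. Groups did not overlap in FPKM at 5 of the 55 loci tested by limma, against 12.2% of all loci so tested, and *Snhg1* was the only one of the 5 that was also apart by CPM among loci that passed the count filter.

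**Figure D3:**
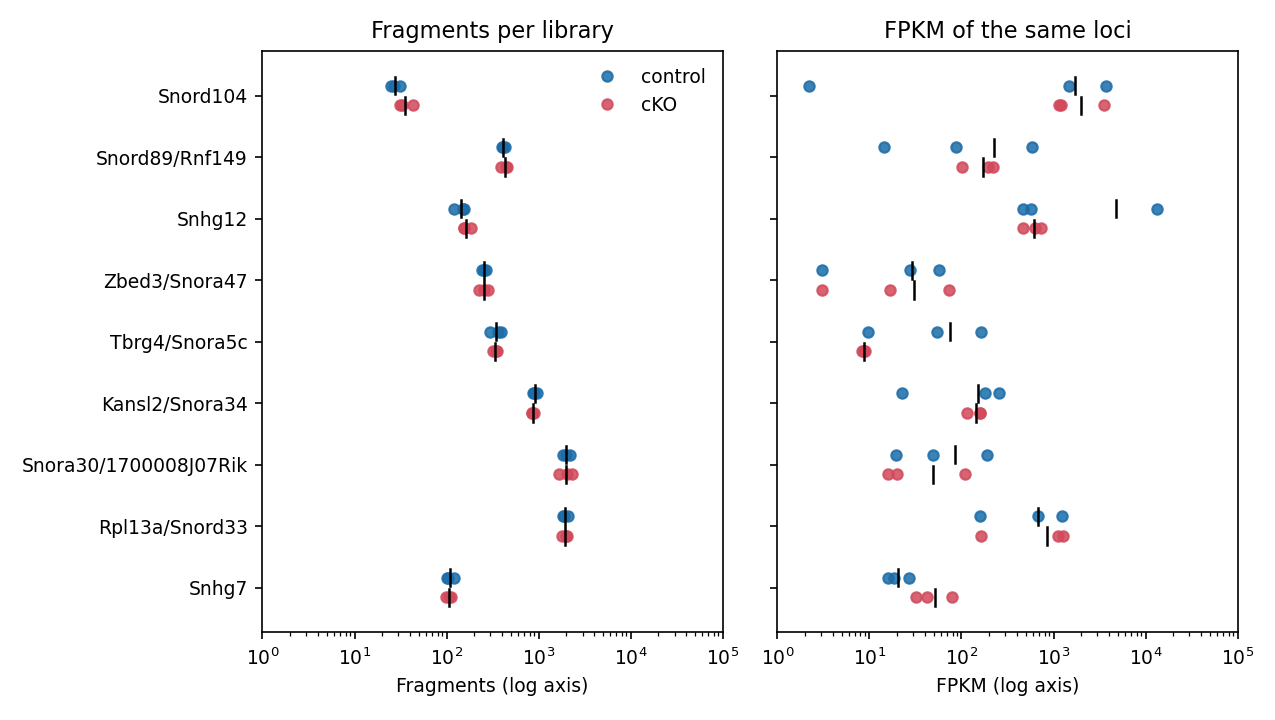
The 9 loci with at least 20 fragments in each library whose FPKM per CPM varied by over 2-fold, with fragments on the left and FPKM on the right, both on log axes of the same span. Points are libraries and bars group means, and points that lie together on the left are spread widely on the right, most for *Snord104* (2.22 to 3724 FPKM).

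Set side by side, the changes on both scales differed by over 0.5 (log2) in 7 of the 37 loci tested on both, or 18.9%, beside 0.239% of all 17998 loci so tested. The 7 were *Snord104*, *Tbrg4*/*Snora5c*, *Snhg12*, *Snhg7*, *Rnf149*/*Snord89*, *Snora30*/1700008J07Rik and *Kansl2*/*Snora34*. The largest change among the 37 was 0.46 in size by fragments and 2.71 by FPKM, and 9 of the 37 had opposite signs on the 2 scales. Among the 11 lone snoRNAs that were tested on both, 0 differed by over 0.5, and each of these had 1 transcript.

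**Figure D4:**
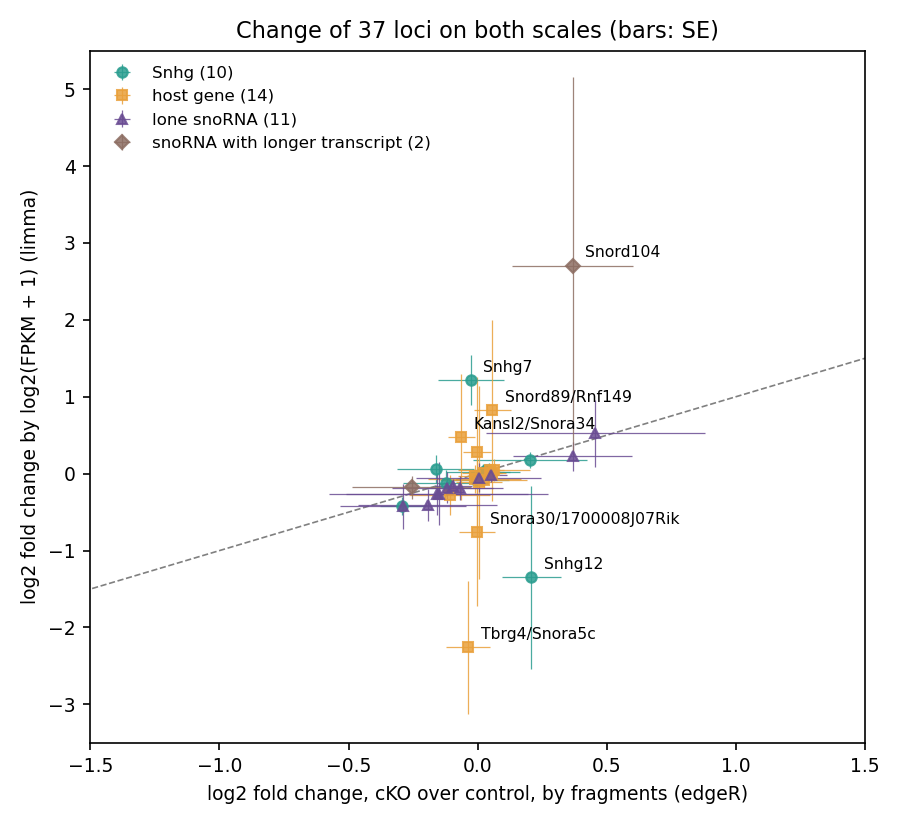
The log2 fold change by fragments (edgeR) against that by log2(FPKM + 1) (limma) for the 37 loci tested on both, with SE bars and the line of equality dashed. The 7 named loci differ by over 0.5 between the scales, and the FPKM axis spans a wider range than the fragment axis.

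Summed over the set, fragments came to 3281, 3194 and 3333 CPM in control and 3202, 3359 and 3482 in cKO, or 3269 ± 70.2 and 3348 ± 140 (SD, n = 3 each), and the groups overlapped. Summed FPKM ran from 35671 to 57376 in control and from 23836 to 50177 in cKO. The mean of cKO over control was 1.02 by CPM and 0.736 by FPKM. For the Snhg loci these ratios were 1.02 and 0.368, and the library control 2 alone had 15922 FPKM, against 2619 to 3437 in the others. For the lone snoRNAs they were 0.985 and 0.780, with 136 to 159 CPM per library.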

How the data were processed

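Bases were called with CASAVA 1.6, reads aligned to mm10 with TopHat2 2.0.9, and transcripts assembled with Cufflinks 2.2.0 and quantified with Cuffdiff, per the labels and the submitters' processing notes. The deposited table holds fragments as whole counts and FPKM as scaled by Cuffdiff; its 2 columns of scaled fragments were not used. Replicate numbers are names within a genotype, and which pool each stands for is not given in the sources used here. Pools are separate animals.

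Fragments were filtered with filterByExpr, normalized by TMM and compared with edgeR 4.0.16 (R 4.3.3) over all 21854 loci left. FPKM of at least 1 in 3 libraries were compared as log2(FPKM + 1) with limma 3.58.1, and fold changes on that scale understate changes of low loci. DESeq2 1.42.0 was an alternative, with other scalings, filters and pseudocounts, a replicate block and each library left out. CPM use TMM-scaled library sizes. The implied effective length is fragments over FPKM and library size. Both fits were tested on simulated data. There, FPKM were counts divided by a fixed length for each locus. Very short effective lengths and shifts of FPKM per CPM between libraries were thus not covered.

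The loci named were the Snhg loci, *Gas5*, the 10 highest by CPM and by FPKM, the 5 largest rises and falls, the 10 largest differences between scales and fixed names such as *Snord118*. *Snord15a*, *Snora31* and *Snora78* and the hosts named beside them were picked with their values in view. The set, the lists and this rule were chosen with earlier results of these data known. Columns of the authors' comparisons were not used. The values of 1 host gene are not reported here.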

Additional observations from a re-analysis of the deposited data

How the results depend on the processing

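The count of called loci of the set by fragments was 0 under each alternative: DESeq2, other scalings and filters, each library left out and the replicate block. Log CPM, with the mean of each group taken off, were correlated between control and cKO libraries over the loci tested. Same-numbered libraries had correlations of -0.08 to 0.05, and the other pairs had -0.11 to 0.07. With 3 libraries per group this cannot settle whether the numbers pair them. The fit with the replicate block called 0 loci of the set and 130 of all loci. Calls over all loci moved to 221 with no filter on low counts and to 76 with at least 50 fragments in 3 libraries, and ran from 44 (without control 1) to 126 with 1 library left out, at 65 without cKO 3. By FPKM the count of called loci of the set ran from 0 to 1 with 1 library left out: *Snora31*, with 6 fragments in all, without control 2, and *Snord49b*, with 10, without cKO 2 (change -13.2). The median change by FPKM ran from -0.11 to -0.0020 (without control 1) with 1 library left out. Over loci of at most 300 bases the median was -0.093 by fragments and -0.26 by FPKM, which took in more loci. Over the 11 lone snoRNAs tested on both scales it was -0.093 by fragments and -0.18 by FPKM. The log2 ratio of summed levels was 0.03 by CPM and -0.44 by FPKM. Of the loci of the set named in the text, only *Snora31* and *Snord49b* gained a call, each by FPKM in 1 of the alternatives, and none reversed a call. For the named loci, 14 of 358 alternative values by fragments and 24 of 363 by FPKM moved by more than 1 SE without a call. Depth limited the short loci: 0 fragments in 1 library allow 0.227 to 0.249 CPM, and the FPKM of each lone snoRNA under 100 bases rests on 15 fragments or fewer in all.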

Other observations

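The highest single share of a library's summed FPKM outside the set was 12.7%, in the library control 2, for an unnamed locus of 82 bases with 81 fragments there. Outside the set, 1 locus with at least 20 fragments in each library varied by over 10-fold in FPKM per CPM, 5730408K05Rik/*Mir5136*, whose transcripts were 76 to 384 bases long: its fragments were 25, 26 and 27 in control and 25, 33 and 27 in cKO, while its FPKM were 11.6, 1525 and 11.7 in control and 11.7, 14.1 and 11.8 in cKO. Lone snoRNAs could exceed the locus that hosts them: *Snora78*, a box H/ACA RNA, had 22 to 38 fragments per library, and *Snhg9*, in whose intron GENCODE placed it, had 1 to 4.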
